A study of Rattus norvegicus with 7 samples.

Results

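The p53 target genes examined here are 34 genes that textbooks place downstream of p53 or at its side, listed by symbol and grouped by role: growth arrest (10 genes), apoptosis (13), feedback on p53 (4), metabolism and repair (6), and the p53 family member Tp63. A row was found for 31 of the 34 among 17246 genes, and all 31 passed the filter on low counts. Bbc3, Tnfrsf10b and Zmat3 were not analysed here. Their transcripts were counted by RNA sequencing of meibomian glands, the lipid-secreting glands of the eyelid, from wild-type female Sprague-Dawley rats aged 3 months. The 4 control libraries came from rats without treatment. The 3 UVB libraries came from rats whose shaved upper eyelids received ultraviolet B at 300 mJ/cm2, in 5 min per day over 5 days. Neither the interval between the last exposure and dissection nor shaving of the controls is stated in the sources used here, and the values describe the gland at that single unstated time.

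p53 is a transcription factor that is held at a low level by the ubiquitin ligase MDM2 and is stabilised when kinases such as ATM, ATR and CHEK2 sense damaged DNA. It then binds response elements near its targets, which slow the cell cycle, promote cell death, limit growth metabolism or feed back on p53 itself. In epidermis, UVB forms pyrimidine dimers in DNA and is a classic activator of p53, and p63 shares part of the same binding sites while it maintains the basal layer of stratified epithelia. Because p53 is controlled largely at the protein level, its target transcripts are often read as its output.

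The libraries held between 20680237 and 28784941 counts. Genes of meibocytes, the lipid-forming cells of the gland, were by far the most abundant of the marker lists: 10 of 10 listed markers had values, and they summed to 43618 to 52931 TPM (a relative transcript level corrected for transcript length) in controls and 40325 to 47015 TPM after UVB. Basal keratinocyte markers (9 of 10 with values) summed to 8132 to 10364 TPM in controls and 10615 to 11717 TPM after UVB, with 5 of 9 called higher, none lower and 4 at log2 fold changes below 0. The 5 included Krt14, a keratin gene of the basal layer, at 4659 to 5741 CPM (counts scaled to the TMM-normalised library total, on which all comparisons below rest) in controls and 6710 to 7397 CPM after UVB. Krt5, also abundant on that list, had means of 4536 CPM in controls and 4469 CPM after UVB and was not called. In TPM, Krt14 ran from 4731 to 5995 in controls and from 6876 to 7657 after UVB. The ranges of Krt5, 3045 to 3933 and 3352 to 3823 TPM, overlapped. No library gave whole counts for Krt14 or Krt5. Markers of skeletal muscle (8 of 10) summed to 2807 to 4020 TPM and 1863 to 3490 TPM, and those of T cells (8 of 10) to 6.84 to 8.90 TPM and 6.73 to 12.7 TPM. Suprabasal keratinocyte markers (8 of 10) summed to 4831 to 5763 TPM and 4945 to 7567 TPM, endothelial markers (8 of 10) to 68.8 to 86.7 TPM and 92.4 to 106 TPM, fibroblast markers (9 of 10) to 1035 to 1577 TPM and 1368 to 2146 TPM, and macrophage markers (10 of 10) to 182 to 509 TPM and 212 to 359 TPM. Markers called higher numbered 4 of 10 tested for macrophages, 4 of 9 for fibroblasts, 3 of 8 for endothelium, 2 of 7 for T cells and 2 of 4 for neutrophils. Those called lower numbered 2 of 10 for meibocytes, 1 of 8 for suprabasal keratinocytes and 1 of 8 for skeletal muscle. Over all genes tested, 6.3% were called higher and 6.74% lower. The macrophage receptor gene Cd163 rose from a mean of 2.57 to 29.6 CPM, while Lyz2, at 53.8 to 248 CPM, was not called. Of the neutrophil markers (9 of 10), which summed to 1580 to 1777 TPM and 1841 to 2116 TPM, Elane was at 0 in every library. Most of that sum was S100a8 (control mean 1354 TPM) and S100a9 (control mean 336 TPM), which are also made by keratinocytes. In such bulk samples, fewer cells of a type and less RNA per cell cannot be told apart.

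In untreated glands the members spanned 3 orders of level. Perp, which encodes a desmosome-associated membrane protein of stratified epithelia with a role in cell death, had the highest level at 1099 ± 47.8 TPM (SD, n = 4) and supplied 42.8% to 47.1% of the summed TPM of all members in each control. Cdkn1a, the gene of the cyclin-dependent kinase inhibitor p21, followed at 191 ± 25.7 TPM, then Ei24 at 179 ± 5.48 TPM and Sfn at 153 ± 15.0 TPM (SD, n = 4 each). The ranges of Cdkn1a and Ei24 overlapped, and Sfn, from 140 to 172 TPM, overlapped Cdkn1a but lay just below every Ei24 value. At the other end stood the death receptor gene Fas at 1.24 ± 0.398 TPM and Pmaip1, which encodes the BH3-only protein NOXA, at 0.940 ± 0.151 TPM (SD, n = 4). The central regulators were of middling level, with Mdm2 at 25.9 ± 1.93 TPM and Mdm4 at 23.4 ± 2.24 TPM (SD, n = 4).

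**Figure D1:**
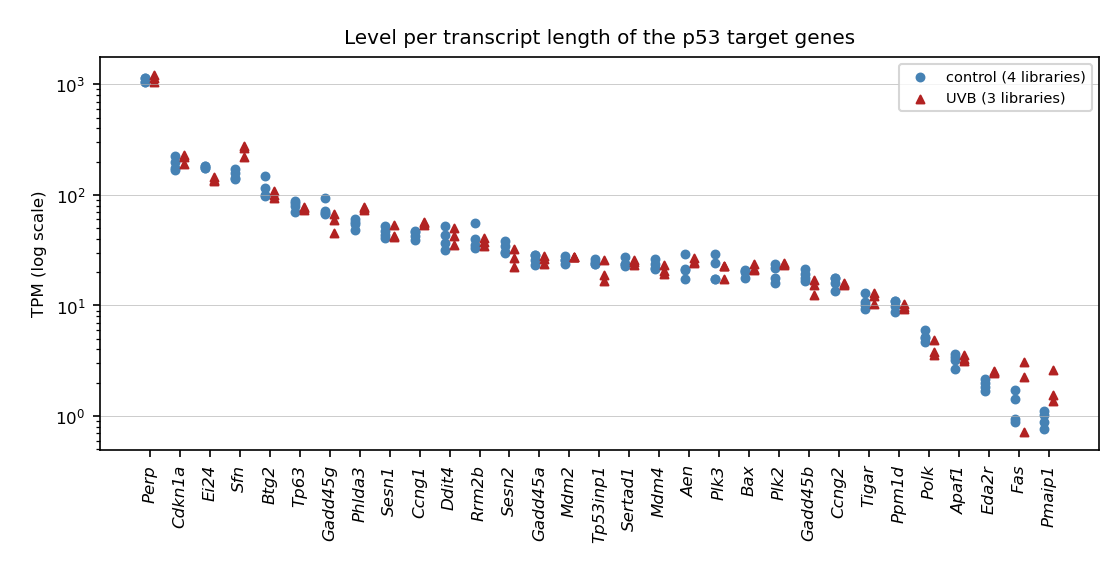
Level of each of the 31 p53 target genes in TPM (log axis), ordered by the control mean, with 1 point per library (circles, 4 controls; triangles, 3 UVB libraries). Perp sits alone above 1000 TPM, most members lie between 10 and 200 TPM, and Fas and Pmaip1 are the lowest.

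The spread between untreated libraries differed by member. Ei24 had a coefficient of variation of 3.06% in TPM over the 4 controls and Perp 4.35%, while Fas reached 32.0%, Plk3 25.7%, Rrm2b 25.4% and Aen 22.8%. In CPM that of Fas was 23.7%, beside 24.5% for Plk3, 25.9% for Rrm2b and 23.6% for Aen. For Rrm2b, Aen, Btg2, Gadd45g, Tigar and Cdkn1a the high value was that of 1 library, control a. Control a measured 103 CPM of Rrm2b, where the other controls ran from 60.2 to 70.5, and 211 CPM of Btg2, where they ran from 137 to 160. It was the highest control for 9 of the 31 members (29%), close to the 31.4% of all tested genes in which it was the highest. That share counts ranks only, and how far control a was raised was not compared with all genes.

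The 300-base RefSeq promoter windows of these genes (assembly GRCr8, 250 bases before to 50 after the annotated start) were searched for letters that match the p53 response element. That element is a pair of decamers of the form RRRCWWGYYY, with R for A or G, W for A or T and Y for C or T. The core of a decamer is the C at its position 4 and the G at its position 7. The decamer is its own reverse complement, so a search of 1 strand covers both. A match kept both cores, had at most 2 mismatches over the 20 bases of the pair and at most 13 bases between the decamers. Windows were found for 28 of the 34 members, without Bax, Bbc3, Rrm2b, Tnfrsf10b, Tp53inp1 and Zmat3. A match was present in 6 of the 28 (21.4%), against 3.53% of all 33469 windows, and a match with at most 1 mismatch in 3 members, against 0.565% of all windows. The 6 stretches follow, 5′ to 3′ in the direction of the gene, with the matching decamers in capitals; that of Ccng1 is shown over the whole 250 bases because it is the member among the 6 that differed after UVB.

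Ccng1 (chr10:25684877-25685126, minus strand): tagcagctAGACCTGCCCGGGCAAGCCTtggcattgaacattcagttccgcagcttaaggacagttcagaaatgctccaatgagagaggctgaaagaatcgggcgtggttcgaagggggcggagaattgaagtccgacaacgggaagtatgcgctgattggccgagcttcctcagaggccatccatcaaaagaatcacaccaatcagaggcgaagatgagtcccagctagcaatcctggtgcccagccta
Cdkn1a (chr20:7150716-7150765, plus strand): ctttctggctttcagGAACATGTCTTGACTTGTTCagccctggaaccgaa
Gadd45a (chr4:97486823-97486883, minus strand): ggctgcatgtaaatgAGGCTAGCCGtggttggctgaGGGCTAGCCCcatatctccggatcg
Aen (chr1:142224488-142224532, plus strand): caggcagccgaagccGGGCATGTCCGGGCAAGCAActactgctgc
Sesn1 (chr20:46948519-46948571, plus strand): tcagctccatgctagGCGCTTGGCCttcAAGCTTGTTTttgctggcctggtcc
Sertad1 (chr1:91903102-91903156, plus strand): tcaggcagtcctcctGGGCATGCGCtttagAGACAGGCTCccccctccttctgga

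In Ccng1, Cdkn1a and Aen the decamers abut, while 3 bases part them in Sesn1, 5 in Sertad1 and 11 in Gadd45a. A match is a description of letters and shows no binding, and elements outside these windows were not searched. Of the 6 members with a match, 1 passed the test after UVB, as did 4 of the 22 tested members whose window held none.

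The comparison of UVB with control glands asked which of these genes differ after irradiation. Among the 31 members, 4 were higher and 1 was lower in the UVB libraries by edgeR's quasi-likelihood test (adjusted p under 0.05 over all genes), or 16.1%. Over all 13709 genes tested, 13% were called, 6.3% higher and 6.74% lower, so the share among the members was near the background in this fit. The genes that rose were Sfn, Phlda3, Pmaip1 and Ccng1, and the gene that fell was Ei24. The median log2 fold change of the members was -0.010, that of all tested genes -0.0058, and 15 members were above 0 and 16 below. Without 1 of controls a to d, in that order, 5, 4, 4 and 4 of the 31 members were called beside 13.8%, 8.03%, 6.27% and 6.91% of all genes. Without 1 of UVB a to c, 5, 3 and 4 of the 31 were called beside 8.74%, 7.57% and 8.47%. The member share was above that of all genes in each of these fits, on 3 to 5 calls. It was below that of all genes with DESeq2, at 5 members beside 17.9%, and with limma-voom, at 4 members beside 13.2%. With no low-count filter 5 members were called beside 10.3% of all genes, with scaling by library size alone 4 beside 11.9%, on log2(TPM + 1) with no filter 4 beside 7.29%, and at a threshold of 0.01 on the adjusted p 2 beside 2.79%. In the plot of values by library, the groups did not overlap for 6 members, or 19.4%, against 26.6% of all genes tested.

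**Figure D2:**
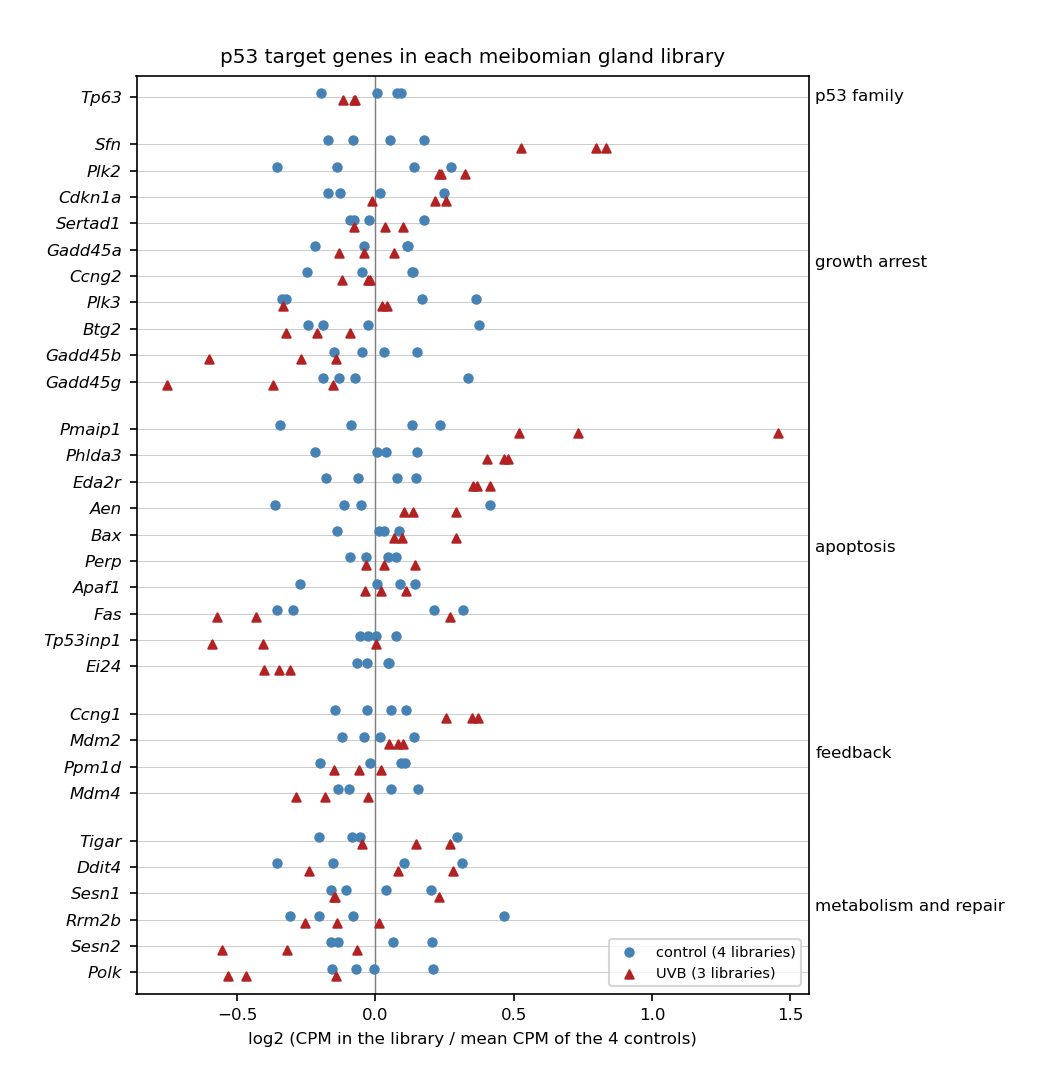
CPM of each member in each library relative to the mean of the 4 controls (log2 scale; circles, controls; triangles, UVB libraries), by role and ordered by fold change. The 3 triangles lie beyond all 4 circles for Sfn, Pmaip1, Phlda3, Eda2r and Ccng1 on the right and Ei24 on the left, and the symbols mix for the other 25 members.

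Among the growth arrest genes, 1 of 10 rose and none fell (10%, against 13% of all genes tested), with a median log2 fold change of -0.043. The gene that rose was Sfn, which encodes stratifin (14-3-3 sigma), a keratinocyte protein that retains cyclin-dependent kinase complexes in the cytoplasm. Sfn measured 376, 413, 353 and 449 CPM in controls a to d and 710, 573 and 691 CPM in UVB libraries a to c. Every UVB library lay above every control, and UVB b was the lowest of the 3. The log2 fold change came to 0.73 (SE 0.10, edgeR adjusted p = 0.00458, 95% interval of the fold 1.41 to 1.94), and it passed in all 19 alternatives at that threshold. Sfn was already the most abundant arrest gene but for Cdkn1a, and after UVB its mean level of 255 ± 32.3 TPM (SD, n = 3) was above the 213 ± 18.7 TPM of Cdkn1a (SD, n = 3), with ranges that overlapped. Its counts were not whole in any library and its gene model overlaps that of Zdhhc18 in GRCr8, so part of its reads could belong elsewhere; Zdhhc18 itself measured 23.2 CPM in controls and 26.1 CPM after UVB, a log2 fold change of 0.17 (edgeR adjusted p = 0.313). The summed basal keratinocyte markers (led by Krt14), endothelial markers and neutrophil markers (mostly S100a8 and S100a9) given above also did not overlap between the groups. Within the basal sum Krt14 was separate and Krt5 overlapped. The part of cell composition in the change of Sfn was not tested.

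Cdkn1a, the arrest target most often used to read p53 activity, measured 212, 164, 181 and 159 CPM in the controls and 177, 208 and 214 CPM after UVB. Control a reached the level of the highest UVB libraries, and the lowest UVB library lay inside the control range. The fold was 1.12 with a 95% interval from 0.942 to 1.32 (edgeR adjusted p = 0.367), so an increase of more than 1.32-fold lies outside that interval. Without control a the log2 fold change was 0.25 (adjusted p = 0.0841), still short of the threshold.

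The 3 GADD45 genes encode small stress-induced proteins that act on cell cycle kinases and stress kinases. Gadd45a, the member of the family with a match in its promoter window, measured 18.0, 20.1, 15.9 and 20.1 CPM in the controls and 18.0, 16.9 and 19.4 CPM after UVB. Its groups overlapped almost wholly (log2 fold change -0.032, SE 0.11, edgeR adjusted p = 0.872), and the sign changed without control b or d and without UVB b. Gadd45b measured 11.9 to 14.7 CPM over the controls and 8.72 to 12.0 CPM over the UVB libraries (log2 fold change -0.32, edgeR adjusted p = 0.136). Gadd45g measured 38.8 to 55.7 CPM and 26.2 to 39.8 CPM (log2 fold change -0.40, edgeR adjusted p = 0.149), so neither had separate groups. The remaining arrest genes also overlapped between groups: the antiproliferative gene Btg2 (log2 fold change -0.21), the polo-like kinase genes Plk2 (0.27) and Plk3 (-0.083), the cyclin gene Ccng2 (-0.055) and Sertad1 (0.022), which encodes a regulator of a cyclin-dependent kinase. The adjusted p-values of these 5 ran from 0.225 for Plk2 to 0.899 for Sertad1 (edgeR). Counts of Plk3 were not whole in any library.

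**Figure D3:**
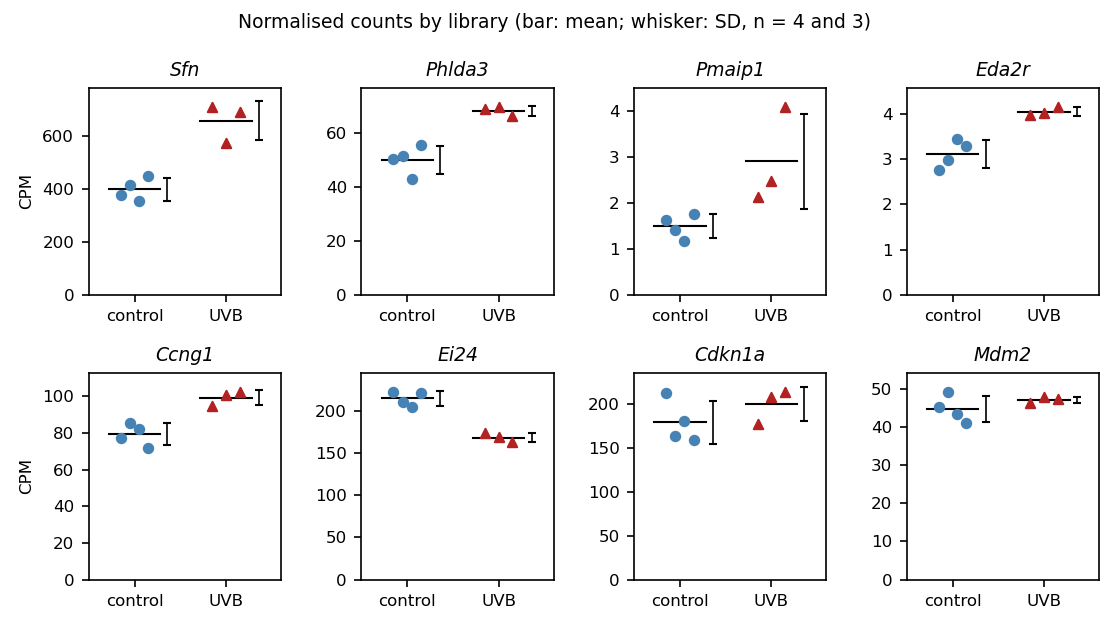
CPM by library for the 6 members whose groups do not overlap and for Cdkn1a and Mdm2 (linear axes from 0; circles, 4 controls; triangles, 3 UVB libraries; bar, mean; whisker, SD). Sfn rises from a mean of 398 to 658 CPM, Ei24 falls from 215 to 168 CPM, and the symbols of Cdkn1a and Mdm2 share 1 range.

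Among the apoptosis genes, 2 of 10 tested rose and 1 fell (30%, against 13% of all genes tested), with a median log2 fold change of 0.10. Phlda3, whose product competes with the survival kinase AKT for membrane lipids, measured 50.1, 51.2, 42.9 and 55.4 CPM in the controls and 68.9, 69.5 and 66.0 CPM after UVB. The 3 UVB libraries lay close together and above all controls. The log2 fold change came to 0.45 (SE 0.084, edgeR adjusted p = 0.0113, 95% interval of the fold 1.20 to 1.56), and the call held in all 19 alternatives at that threshold. The gene model of Phlda3 overlaps a ribosomal protein pseudogene, Rpl11-ps12, in GRCr8, and its counts were whole in every library.

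Pmaip1 measured 1.63, 1.40, 1.17 and 1.75 CPM in the controls and 2.13, 2.48 and 4.08 CPM after UVB. UVB c stood highest, and the other UVB libraries lay above control d, the highest control. Its log2 fold change of 0.97 was the largest among the members (SE 0.27, edgeR adjusted p = 0.0453, 95% interval of the fold 1.28 to 2.99), but the transcript was scarce. The call was lost in 11 of 19 alternatives (adjusted p up to 0.153), among them every fit without 1 of the controls and those without UVB b or UVB c. Without UVB c the log2 fold change was 0.64.

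Eda2r, the gene of an ectodysplasin receptor of the tumour necrosis factor receptor family, was also scarce and had separate groups. It measured 2.75, 2.99, 3.45 and 3.29 CPM in the controls and 3.98, 4.03 and 4.16 CPM after UVB. Its log2 fold change of 0.38 did not pass the test (SE 0.16, edgeR adjusted p = 0.148), nor did it in any alternative.

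The gene that fell was Ei24, which encodes a membrane protein of the endoplasmic reticulum with roles in autophagy and cell death. Ei24 measured 223, 211, 205 and 222 CPM in the controls and 173, 169 and 163 CPM after UVB. The gap between the groups was wide relative to the spread within them. The log2 fold change came to -0.35 (SE 0.058, edgeR adjusted p = 0.00728, 95% interval of the fold 0.715 to 0.857), and Ei24 passed in all 19 alternatives at that threshold.

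Bax, Perp and Fas were not called. Bax, the pore-forming member of the BCL2 family, measured 24.2, 20.7, 23.0 and 23.3 CPM in the controls and 24.4, 27.9 and 23.9 CPM after UVB (log2 fold change 0.16, edgeR adjusted p = 0.266), with UVB b the highest of all; its counts were not whole in any library. Perp measured 1160, 1226, 1115 and 1251 CPM in the controls and 1213, 1160 and 1311 CPM after UVB, a fold of 1.03 (95% interval 0.917 to 1.17, edgeR adjusted p = 0.724). The 2 groups of Perp interleaved, which sets it apart in measurement from Sfn, another gene of stratified epithelium, although the difference between the 2 genes was not tested.

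The order of the libraries for Fas differed between counts and TPM. By count it measured 1.26, 1.87, 1.31 and 2.01 CPM in the controls and 1.94, 1.08 and 1.19 CPM after UVB, a log2 fold change of -0.20 (edgeR adjusted p = 0.693). By the authors' TPM it measured 0.940, 1.72, 0.890 and 1.42 TPM in the controls and 2.26, 0.710 and 3.10 TPM after UVB. UVB c was thus among the lowest libraries by count and the highest by TPM, and the log2 fold change of Fas turned its sign in the fits on log2(TPM + 1), at 0.36 (adjusted p = 0.453 with the filter on low TPM). The cause was not tested.

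The nuclease gene Aen was called only when control a was left out. Its UVB libraries at 34.5, 38.5 and 33.8 CPM lay above 3 of the 4 controls (24.5, 29.1 and 30.3 CPM) but below control a (41.9 CPM). The log2 fold change was 0.18 (edgeR adjusted p = 0.499), and without control a it was 0.35 and passed (adjusted p = 0.0480); the counts of Aen were not whole in any library. Tp53inp1, a stress-induced regulator of autophagy and death, measured 13.8, 14.1, 14.8 and 13.5 CPM in the controls and 9.34, 10.6 and 14.1 CPM after UVB. UVB c stayed among the controls: the log2 fold change was -0.31 (edgeR adjusted p = 0.174), and without UVB c it was -0.49 and passed (adjusted p = 0.0357). Apaf1, the apoptosome scaffold gene, gave 0.029 (edgeR adjusted p = 0.899).

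**Figure D4:**
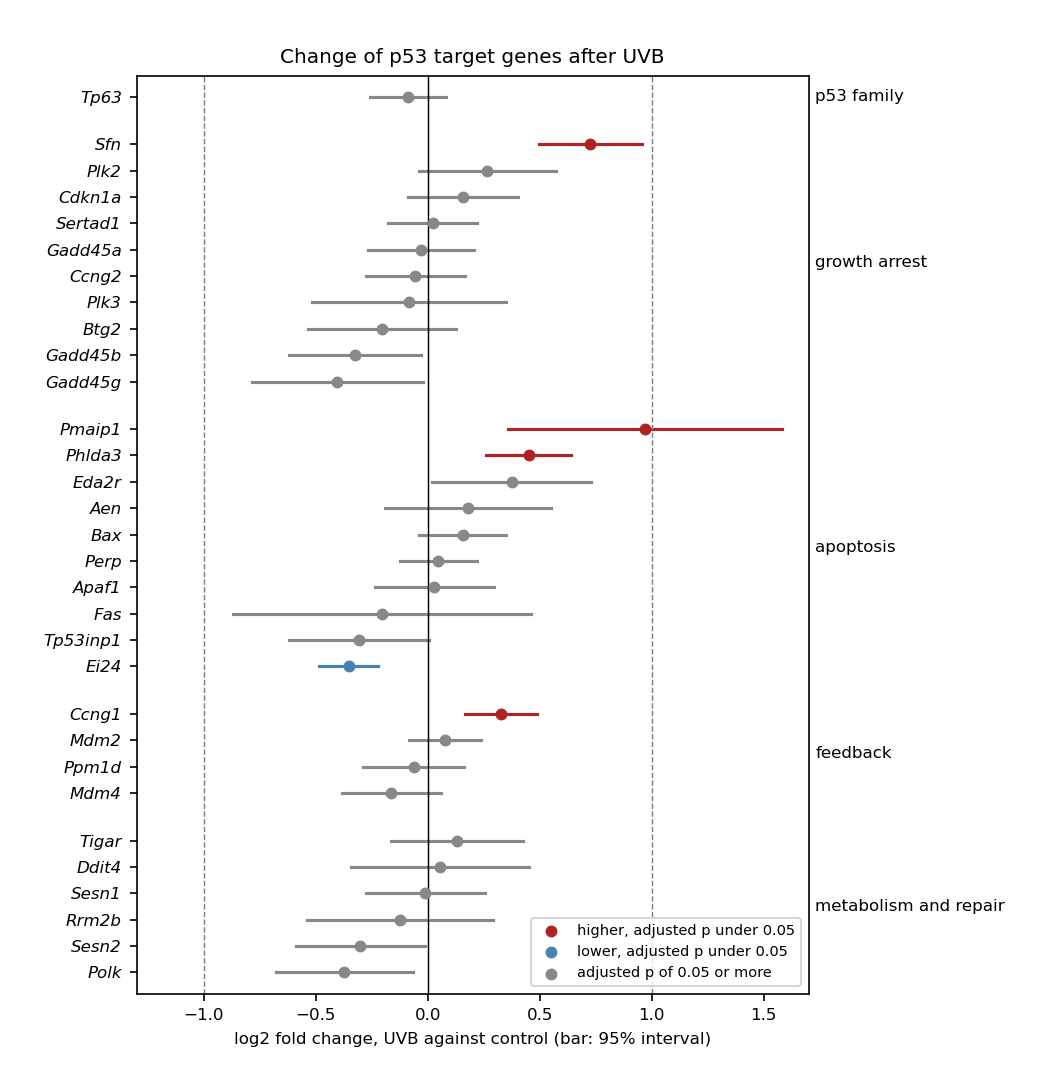
Log2 fold change of each member, UVB against control, with its 95% interval (bars), by role; dashed lines mark a 2-fold change either way and colour marks the edgeR call. The interval of Pmaip1 alone crosses a dashed line, and the 5 coloured members are Sfn, Pmaip1, Phlda3, Ccng1 and Ei24.

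Of the 4 feedback genes, 1 rose (25%, against 13% of all genes tested). Ccng1, whose product cyclin G1 brings a phosphatase to MDM2, measured 77.4, 85.4, 82.3 and 71.5 CPM in the controls and 94.5, 101 and 102 CPM after UVB. All UVB libraries exceeded all controls by a modest margin. The log2 fold change of Ccng1 came to 0.33 (SE 0.072, edgeR adjusted p = 0.0201, 95% interval of the fold 1.12 to 1.40). The call was lost without UVB b (adjusted p = 0.0540) and without UVB c (adjusted p = 0.0596), at log2 fold changes of 0.32 and 0.30. Ccng1 carries the abutting pair of decamers printed above, with 1 mismatch, between 242 and 223 bases before the annotated start.

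Mdm2, the negative regulator of p53 that p53 itself induces, measured 45.2, 49.2, 43.4 and 41.1 CPM in the controls and 46.3, 47.9 and 47.3 CPM after UVB. The UVB libraries fell inside the control range. The fold was 1.06 with a 95% interval from 0.944 to 1.18 (edgeR adjusted p = 0.510). Its partner Mdm4 (log2 fold change -0.16, adjusted p = 0.306) and the phosphatase gene Ppm1d (-0.062, adjusted p = 0.726), which shuts off damage kinases, did not pass the same test. The gene model of Mdm4 overlaps others in GRCr8, among them Lrrn2 and Pik3c2b, and that of Ppm1d 1 other gene, and the handling of strand is not given in the sources used here.

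None of the 6 metabolism and repair genes passed the test, with a median log2 fold change of -0.066; 2 of them had an unadjusted p under 0.05, as did 4050 of the 13709 genes tested. The sestrin genes restrain the growth kinase complex mTORC1. Sesn1 measured 66.3, 85.3, 68.9 and 76.1 CPM in the controls and 67.0, 86.9 and 66.9 CPM after UVB, with the same span in both groups (log2 fold change -0.010, SE 0.12, edgeR adjusted p = 0.967; its sign changed in several alternatives). Sesn2 measured 74.0, 67.1, 57.5 and 58.5 CPM in the controls and 61.3, 43.8 and 51.5 CPM after UVB. UVB a lay inside the control range and the other UVB libraries below it (log2 fold change -0.30, edgeR adjusted p = 0.152). Polk, which encodes a polymerase for synthesis across damaged bases, ran from 10.8 to 13.9 CPM over the controls and from 8.32 to 10.9 CPM over the UVB libraries (log2 fold change -0.37, edgeR adjusted p = 0.104). The glycolysis regulator gene Tigar (0.13, adjusted p = 0.550), the mTORC1 inhibitor gene Ddit4 (0.056, adjusted p = 0.862) and the ribonucleotide reductase subunit gene Rrm2b (-0.12, adjusted p = 0.697) had groups that overlapped. Without control a the sign of Rrm2b was positive, at 0.073.

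Tp63 measured 195, 239, 236 and 225 CPM in the controls and 212, 207 and 213 CPM after UVB. The 3 UVB libraries lay between control a and the other controls. The fold was 0.940 with a 95% interval from 0.836 to 1.06 (edgeR adjusted p = 0.473).

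The sizes were small throughout. No member differed by 2-fold, and 29 of 31 had a log2 fold change under 0.5 in either direction. The 95% interval of the fold lay wholly within 2-fold for 30 of 31 members (96.8%; all but Pmaip1) and for 82.5% of all genes tested, and within 1.5-fold for 21 members (67.7%) and 63.3% of all genes tested. These intervals rest on 4 and 3 libraries and are for the difference between the groups, not for single libraries.

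Related genes were set against each other within each library, which removes the scaling of the library. For 7 pairs of paralogues, the log2 ratio of their TPM was compared between the groups by exact permutation, two-sided, of the group labels over their 35 possible assignments, whose smallest possible p is 0.0286. No pair passed at an unadjusted or at an adjusted threshold of 0.05. After adjustment over the 7 pairs, a pass needs several pairs at the smallest p together. The adjusted result therefore says nothing about a single pair. The pair nearest to it was Ccng1 to Ccng2, with a log2 ratio of 1.45 ± 0.214 in controls and 1.82 ± 0.0159 after UVB (mean ± SD over 4 and 3 libraries, exact permutation p = 0.0571, adjusted over the 7 pairs 0.400). On the same measures the log2 ratio of Mdm2 to Mdm4 was 0.146 ± 0.187 and 0.388 ± 0.132 (exact permutation p = 0.143, adjusted 0.400). The ratios of Sesn1 to Sesn2, Plk2 to Plk3 and the 3 GADD45 pairs gave exact p-values of at least 0.229, so unequal movement of these paralogues was not detectable with 7 libraries.

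Genes around p53 were taken from 4 further lists. Of 18 tested genes of damage signalling, 2 rose and none fell (11.1%, against 13% of all genes), with a median log2 fold change of -0.0059. The 2 were Chek2, the checkpoint kinase that phosphorylates p53, from 6.89 ± 0.462 to 10.5 ± 0.175 CPM (mean ± SD over 4 and 3 libraries; log2 fold change 0.60, edgeR adjusted p = 0.0104), and Clspn, the gene of claspin, a mediator at replication forks (0.92, adjusted p = 0.0141). The gene of the upstream kinase ATM, Atm, gave a log2 fold change of -0.10 (edgeR adjusted p = 0.472), and that of ATR, Atr, 0.063 (adjusted p = 0.612); both were named after their values were seen. Of 24 tested further targets of p53, 1 rose and 1 fell (8.33%), with a median of 0.024. Ninj1, which encodes a protein of membrane rupture, rose (0.58, adjusted p = 0.0132). Cyfip2, an actin regulator gene, fell (-0.94, adjusted p = 0.0385), a call lost without any 1 of the controls and without UVB b or UVB c (adjusted p up to 0.0924). The repair gene Ddb2 (-0.29, adjusted p = 0.218) and the replication clamp gene Pcna (0.061, adjusted p = 0.735) did not pass, and Gdf15, at 0.456 ± 0.284 and 0.176 ± 0.0831 CPM on the same measures, was left out by the filter on low counts.

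Among 11 tested caspases and genes of the BCL2 family and their partners, 1 rose and 2 fell (27.3%, against 13% of all genes tested). Their median log2 fold change was -0.034. Bcl2l1, which encodes the survival protein BCL-XL, fell (log2 fold change -0.27, edgeR adjusted p = 0.0349), as did Bcl2l11, which encodes the death-promoting protein BIM (-0.52, adjusted p = 0.0274). The call of Bcl2l1 was lost without any 1 library other than control d (adjusted p up to 0.10), that of Bcl2l11 without control b, control c, UVB a or UVB b (adjusted p up to 0.0851), and both on each TPM scale.

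The last list held genes of cell division that p53 and p21 repress through the DREAM complex, which silences them in resting cells. Of its 13 tested members 10 rose and none fell (76.9%, against 13% of all genes tested). The groups were separate for all 13, against 26.6% of all genes tested. The median log2 fold change was 0.77. The transcription factor gene Mybl2 rose from 6.22 ± 1.21 to 18.2 ± 2.23 CPM (mean ± SD over 4 and 3 libraries; log2 fold change 1.55, edgeR adjusted p = 0.00157). Rrm2, the cell cycle subunit of ribonucleotide reductase, gave 1.36 (adjusted p = 0.00107), and the mitotic kinase gene Plk1 gave 1.06 (adjusted p = 0.00107). No library gave whole counts for Rrm2. The summed basal keratinocyte markers (led by Krt14), endothelial markers and neutrophil markers (mostly S100a8 and S100a9) given above were also higher in every UVB library. Within the basal sum Krt14 was separate between the groups and Krt5 overlapped. The part of cell composition in the changes was not tested. The replication subunit Rrm2 thus rose in the same libraries in which the p53-induced subunit Rrm2b gave a log2 fold change of -0.12 with no call; the difference between these 2 genes was not tested.

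**Figure D5:**
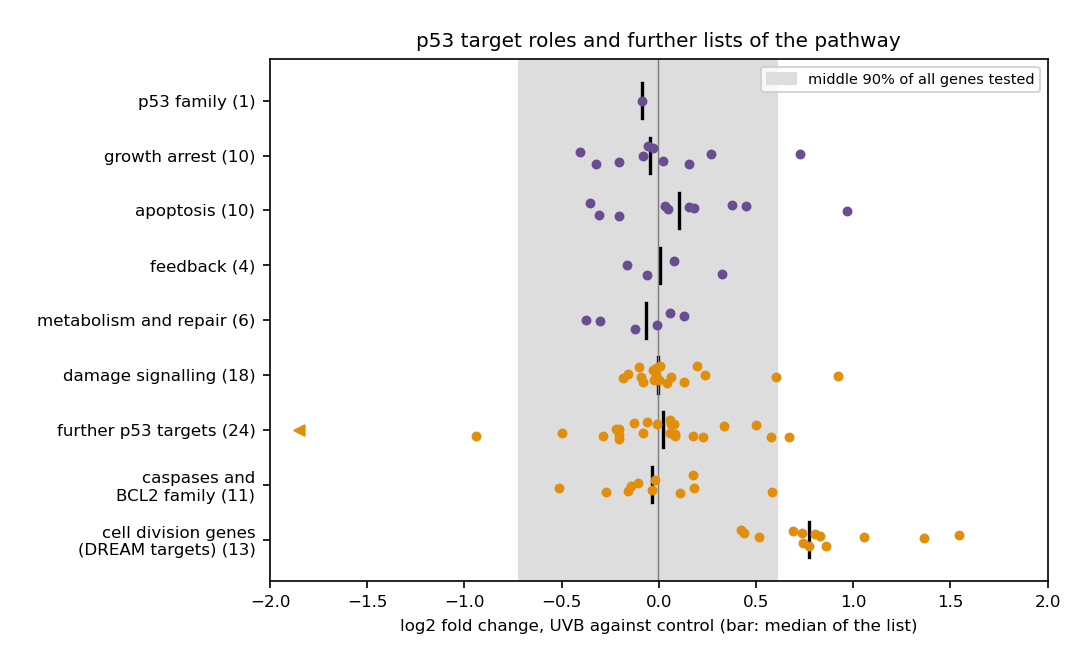
Log2 fold change of every tested gene of the 5 roles (purple) and of the 4 further lists (orange), with the number of genes in brackets and the median as a black bar; the grey band runs from -0.72 to 0.61, the middle 90% of all genes tested. The medians of the p53 target roles lie between -0.089 and 0.10, that of the DREAM list at 0.77, and the arrow marks a further target that lies beyond the axis.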

How the data were processed

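RNA of 7 meibomian gland libraries was sequenced. Whether replicates of a group are separate animals is not stated, so p-values set the differences only against the spread between these samples. Per the submitters' processing notes, FastQC, Trimmomatic, DRAGEN, Picard and the build rn7 were used; versions, annotation and handling of strand are not given in the sources used here. The authors deposited estimated counts per gene, 12.5% of them not whole, and TPM values, which the authors scaled over more genes than the table holds (its genes sum to 82% to 84.1% of the full scale per library).

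Cells moved by commas in gene names were handled by reading the 7 values from the right; 5 rows without 7 values were left out of each table. Columns carry the group and a number that matches no replicate number of the labels. Letters (control a to d, then UVB a to c) tell libraries apart and pair none. No 2 libraries of a group agreed within sampling noise. Counts were rounded and tested across all genes with edgeR 4.0.16 (R 4.3.3; quasi-likelihood, robust, TMM, filterByExpr), two-sided with Benjamini-Hochberg adjustment; SE is the absolute log2 fold change over the square root of F. Alternatives used DESeq2 1.42.0 and limma 3.58.1 (voom, or a trend on log2 TPM), other scalings and filters, and fits without 1 library; fits were tested on simulated data. The members and lists were chosen with earlier results of these data known. Values per library are given for members past the threshold, those with separate groups and 12 fixed genes (Bbc3 among them, not analysed here), and up to 3 genes with the smallest p for each further list, with Ddb2, Gdf15 and Pcna. Some genes that this rule names are not reported here.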

Additional observations from a re-analysis of the deposited data

How the results depend on the processing

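No paired analysis was possible because no pairing of control with UVB libraries is given in the sources used here. The calls of Sfn, Phlda3 and Ei24 kept their direction and passed in all 19 alternatives at the threshold of 0.05; a threshold of 0.01 left 2 members called, Sfn and Ei24, and 383 genes in all, stricter by construction. Leaving out 1 library gave 3 to 5 called members (3 without UVB b) and 851 to 1898 genes. Without 1 library the tests of paralogue ratios cannot pass, so their 0 calls there say nothing. Signs changed only for uncalled members. The log2 fold change of Gadd45a was 0.0036 under voom with quality weights and -0.10 to 0.020 without 1 library; the log2 fold change of Sesn1 was 0.0023 on each TPM scale and -0.14 to 0.063; that of Apaf1 -0.014 under voom with quality weights and -0.048 to 0.081; that of Fas 0.36 on log2(TPM + 1), with and without the filter, and 0.49 on log2(TPM + 0.1). Without 1 library the ranges were -0.18 to 0.063 for Plk3, -0.015 to 0.089 for Sertad1, -0.00081 to 0.092 for Perp, -0.070 to 0.18 for Ddit4 and -0.21 to 0.073 for Rrm2b. The median of all members was 0.028 on log2(TPM + 1). Fas, Pmaip1 and Eda2r are scarce; the effect of depth on them was not tested.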
